A study of Mus musculus with 18 samples.

Results

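The genes described here are 37 mouse genes of glucose breakdown and of the transcriptional response to low oxygen, out of 19630 genes in the deposited transcript table. They were taken as a fixed list of names (10 genes of glucose uptake and the first steps of glycolysis, 7 of its later steps, 5 that handle lactate and pyruvate or set the flux, 3 of oxygen sensing and 12 other targets of hypoxia-inducible factor), and the transcripts of each were summed by gene ID. All 37 passed the filter on low counts, as did 15389 genes in all. Mouse embryonic stem (ES) cells, which are usually grown on a layer of embryonic fibroblasts called feeders, were profiled by RNA sequencing with an mRNA library kit in 18 libraries, 3 in each of 6 groups. Feeders without ES cells came in control form and in a form that the labels call p53-defective, and ES cells were grown on each form, giving what is called here the control and the p53-defective co-culture. In the remaining groups, feeders had been taken away from ES cells kept on the control form, or ES cells were given the integrin α5β1 inhibitor ATN161 and no feeders. The co-culture RNA came from both cell types together. The labels give neither the kind of p53 alteration, the mouse strain or ES line, the dose or duration of ATN161, nor how the feeders were removed and whether this was done in culture or only when RNA was taken. They do not say whether the 3 libraries of a group came from separate cultures, so p-values measure the spread between libraries, which may be technical.

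Libraries held 15122721 to 19833404 estimated counts on genes. Levels below are CPM, counts scaled to library size with TMM factors. Trp53, which encodes p53, stood at 326, 317 and 244 CPM in p53-defective feeders and 123, 124 and 112 CPM in control feeders, so its RNA was higher under that label (log2 fold change 1.31, adjusted p = 1.07e-11) and does not by itself check it. The p53 targets Cdkn1a and Mdm2 were lower in those feeders, with log2 fold changes of -1.35 and -1.42 (adjusted p = 4.6e-10 and 2.01e-14). Between co-cultures Trp53 and Mdm2 were lower on p53-defective feeders (-0.94 and -2.90) and Cdkn1a was not called (-0.16, adjusted p = 0.205). Cell type markers differed between the cultures. The 12 ES cell markers summed to 3443 to 3638 CPM in the control co-culture but 331 to 450.1 CPM in the p53-defective co-culture. They summed to 129 to 164 CPM in control feeders and 148 to 171 CPM in p53-defective feeders. Of the 12, 11 had means under 1 CPM in control feeders (all but Klf4). In p53-defective feeders 10 did (all but Klf4 and Tfcp2l1), so the feeder sums rest on these. Pou5f1, Zfp42, Tdh, Utf1 and Fgf4 were at 0 in every feeder library of either kind. The 12 fibroblast markers summed to 35159.6 to 42558 CPM in control feeders, 5481 to 7943 CPM in p53-defective feeders, 6978 to 7327 CPM in the control co-culture and 17045 to 24273 CPM in the p53-defective co-culture. The 8 mesothelial markers summed to 1290.1 to 1912 CPM in p53-defective feeders and 2074 to 2151 CPM in their co-culture, and to between 22.1 and 63.99 CPM in the other groups. The 8 macrophage markers summed to 143 to 196 CPM in control feeders and 10.98 to 14.96 CPM in p53-defective feeders, where Adgre1, Fcgr1, Tyrobp and Ctss were at 0, to 39.2 to 42.5 CPM in the p53-defective co-culture and to between 6.59 and 10.2 CPM in the other groups. In ES cells after feeder removal all 12 fibroblast markers had means of at least 1 CPM and summed to 4511 to 4936 CPM. All 12 also had means of at least 1 CPM with ATN161 and no feeders, with sums of 1076 to 1190.2 CPM. Whether this RNA came from remaining feeders was not tested. In these bulk libraries, fewer cells of a type and less RNA per cell cannot be told apart.

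Glycolysis splits glucose into pyruvate in a chain of cytosolic steps, and lactate dehydrogenase then turns pyruvate into lactate, which leaves the cell through a monocarboxylate transporter. Hypoxia-inducible factor (HIF) is a dimer whose alpha subunit is hydroxylated by oxygen-dependent prolyl hydroxylases and destroyed when oxygen is plentiful, so its activity is set mainly at the protein level. When stabilised, it binds short DNA motifs and raises transcription of most glycolytic enzymes, of glucose and lactate transporters, and of its own hydroxylases. Mouse ES cells use both glycolysis and respiration, and the balance of the pathways differs between states of pluripotency.

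**Figure D1:**
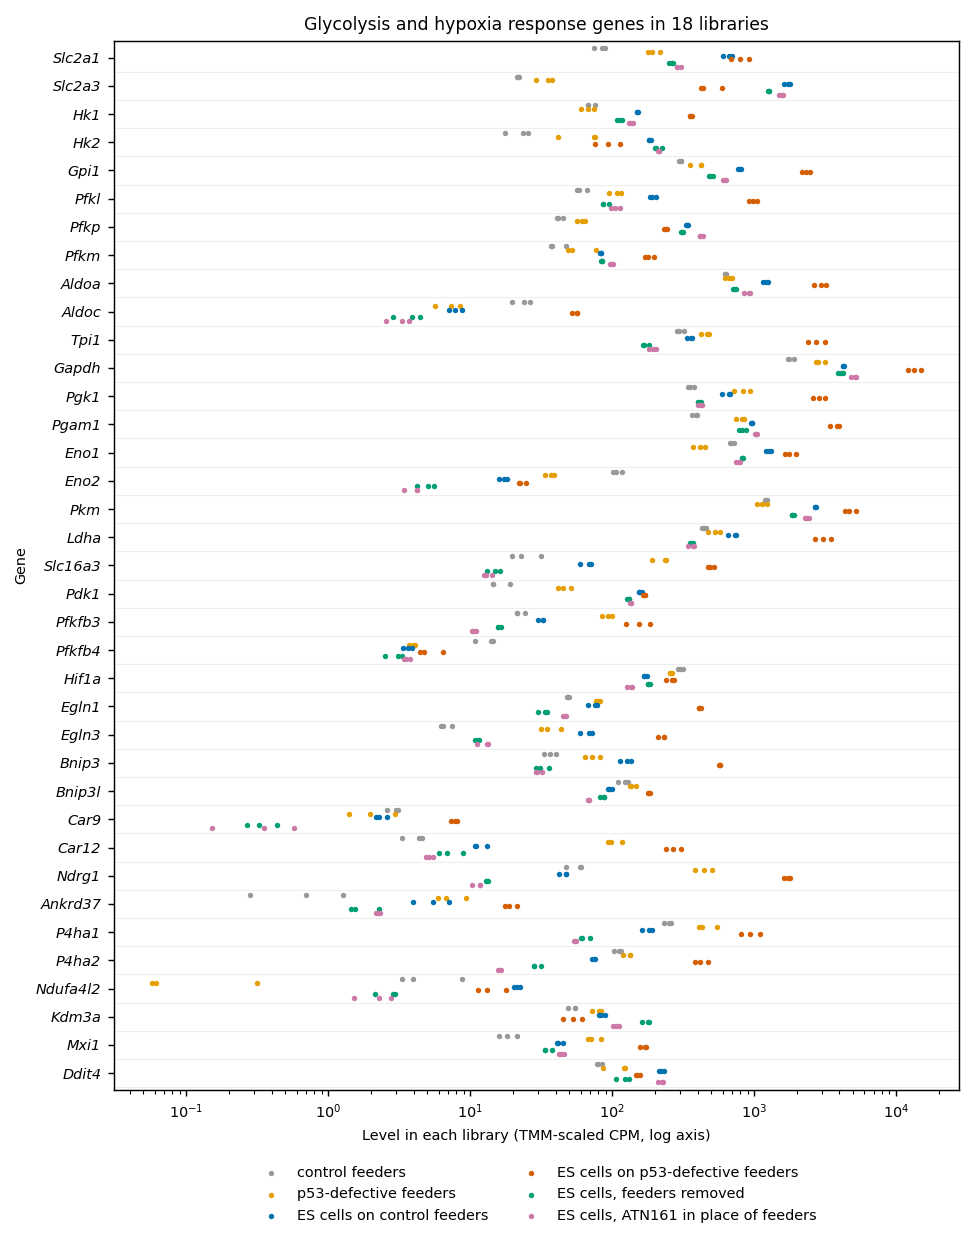
Level of each of the 37 genes (rows, by role) in each of the 18 libraries (points, coloured by group), as TMM-scaled CPM on a log axis. The points of the p53-defective co-culture lie farthest right for most genes, whereas Slc2a3 and Hk2 lie farthest right in the other ES cultures.

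Among the 37 genes, Gapdh, glyceraldehyde-3-phosphate dehydrogenase, had the highest deposited level per transcript length in all 6 groups. It stood at 2797 ± 138 TPM (mean ± SD, n = 3), a unit scaled to transcript length and library size, in control feeders, 4368 ± 317 TPM in p53-defective feeders, 5980.5 ± 67.2 TPM in the control co-culture and 12019.5 ± 43.3 TPM in the p53-defective co-culture. Pkm, pyruvate kinase of muscle and proliferating cells, had the next highest mean in every group, at 1088 ± 20.4 TPM in control feeders and 2466 ± 42.6 TPM in the p53-defective co-culture. In p53-defective feeders its libraries (994 ± 62.98 TPM) overlapped those of Aldoa (927 ± 52.1 TPM) and Pgk1 (919.5 ± 102 TPM). In the p53-defective co-culture the Pkm libraries overlapped those of Pgam1 (2434 ± 80.9 TPM) and Tpi1 (2352 ± 85.5 TPM), and Aldoa (2416 ± 18.1 TPM) and Ldha (2318 ± 64.7 TPM) came close below. Summed TPM of 15 glycolytic enzyme genes, from the hexokinases to pyruvate kinase, made up 0.732% ± 0.020 (SD, n = 3) of all TPM in control feeders, 0.969% ± 0.057 in p53-defective feeders and 1.42% ± 0.030 in the control co-culture. The share was 2.63% ± 0.011 in the p53-defective co-culture, against 1.08% ± 0.019 in ES cells after feeder removal and 1.15% ± 0.027 with ATN161. The 3 libraries of the p53-defective co-culture lay above all 15 other libraries, and the 6 groups did not overlap. The lowest levels belonged to Pfkfb4, Car9 and Aldoc, with means of 1.88, 2.25 and 5.25 TPM in the control co-culture.

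Cultures on the 2 kinds of feeder were compared first. On p53-defective feeders, 30 of the 37 genes were higher and 6 lower than on control feeders, at an adjusted p below 0.05 in edgeR's quasi-likelihood test, and 1 (Pdk1) was not called. Among all genes tested, 36.6% were called higher and 46.7% lower, and the median log2 fold change was 1.68 for the 37 genes and -0.18 for all genes. These directions depend on the scale. When the libraries were scaled on 431 ES-specific genes, 37 of the 37 were higher and 0 lower, and when they were scaled on 77 feeder-specific genes, 3 were higher and 30 lower. Those scalings moved the median of all genes to 2.84 and -2.84. A change of scale shifts the log2 fold changes of all genes by nearly the same amount. The distance of the 37 genes' median above that of all genes was therefore bound to stay nearly the same. It was 1.86, 1.87 and 1.87 log2 units under the 3 scalings, which is not a test of it. All fold changes below are on the scale that sets the trimmed mean of all genes level (TMM). The co-culture values given in full are mainly of genes picked for groups that did not overlap, so that separation is not a result.

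Of the 10 genes of glucose uptake and the first steps, 7 were higher and 3 lower on p53-defective feeders. Pfkl, the liver-type phosphofructokinase that commits sugar to glycolysis, stood at 985, 1051 and 923 CPM on p53-defective and 205, 185 and 191 CPM on control feeders (log2 fold change 2.35 ± 0.09 SE, adjusted p = 9.06e-17). The groups were far apart and did not overlap. Aldoc, the aldolase found mainly in brain, stood at 56.9, 56.97 and 51.98 against 7.86, 7.10 and 8.76 CPM (log2 fold change 2.81 ± 0.14 SE, adjusted p = 1.39e-14). Gpi1, which interconverts glucose and fructose phosphates, stood at 2315, 2486 and 2184 against 813, 766 and 779 CPM (log2 fold change 1.57 ± 0.07 SE, adjusted p = 9.49e-15). Neither gene's groups overlapped. Aldoa, the main aldolase, Hk1, the housekeeping hexokinase, and Pfkm, the muscle-type phosphofructokinase, were higher too, by 1.28, 1.26 and 1.13 on the log2 scale. Slc2a1, the basal glucose transporter, was higher by only 0.29 (adjusted p = 0.00783) with overlapping groups, and its direction turned with library totals in place of TMM (-0.050). The neuron-type glucose transporter Slc2a3 went the other way, at 436, 423 and 594 CPM on p53-defective and 1779, 1633 and 1723 CPM on control feeders (log2 fold change -1.82 ± 0.10 SE, adjusted p = 2e-13). Hk2, the inducible hexokinase, stood at 93.4, 75.4 and 113 against 187, 181 and 182 CPM (log2 fold change -0.96 ± 0.17 SE, adjusted p = 5.15e-05). Pfkp, the platelet-type phosphofructokinase, stood at 230.4, 238 and 243 against 337, 332 and 342 CPM (log2 fold change -0.51 ± 0.06 SE, adjusted p = 1.19e-07). All 3 of these had every control co-culture library above every p53-defective one, and all 3 were higher in ES cells after feeder removal than in control feeders, by 5.86, 3.24 and 2.87 on the log2 scale. ES cell markers moved with them between the co-cultures, and their part in these differences was not tested.

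All 7 genes of the later steps were higher on p53-defective feeders. Tpi1, triosephosphate isomerase, stood at 2750.0, 3166 and 2407 CPM on p53-defective and 367, 336 and 359 CPM on control feeders (log2 fold change 2.97 ± 0.09 SE, adjusted p = 8.25e-18). Its lowest library on p53-defective feeders was far above its highest on control feeders. Pgk1, the first ATP-producing enzyme of the pathway, stood at 2878, 3169.7 and 2611 against 664, 598 and 682 CPM (log2 fold change 2.16 ± 0.09 SE, adjusted p = 1.12e-15). Pgam1, phosphoglycerate mutase, stood at 3822, 3976 and 3435 against 967, 947 and 961 CPM (log2 fold change 1.97 ± 0.08 SE, adjusted p = 1.94e-16). Gapdh stood at 13484, 15001 and 12246 against 4214, 4278 and 4233 CPM (log2 fold change 1.68 ± 0.08 SE, adjusted p = 1.98e-14). None of the 3 had overlapping groups, and for Gapdh, often used as a reference gene, the fitted level was 3.20 times that of the control co-culture on this scale, a direction that turned when libraries were scaled on feeder-specific genes (-0.98). Pkm stood at 4700.1, 5207 and 4390.4 against 2752, 2686 and 2669 CPM (log2 fold change 0.82 ± 0.07 SE, adjusted p = 7.25e-10). Of these 7 genes, the enolases differed least. Eno1, the ubiquitous enolase, stood at 1752, 1989 and 1646 against 1313, 1214 and 1271 CPM (log2 fold change 0.50 ± 0.08 SE, adjusted p = 3.66e-06), and Eno2, the neuronal one, at 22.5, 24.7 and 22.2 against 18.3, 17.2 and 16.1 CPM (log2 fold change 0.43 ± 0.09 SE, adjusted p = 0.000274). Reads of Gapdh, Aldoa, Pgk1, Pgam1, Ldha and Bnip3l can be shared with annotated pseudogene copies, and those of Eno1 with its retrocopy, so the levels of these genes are uncertain to that extent.

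Of the 5 genes of lactate, pyruvate and flux control, 4 were higher on p53-defective feeders. Ldha, the lactate dehydrogenase subunit that favours lactate formation, stood at 3073, 3500.2 and 2707 CPM on p53-defective and 748, 661 and 735 CPM on control feeders (log2 fold change 2.11 ± 0.09 SE, adjusted p = 1.39e-15). Slc16a3, the lactate exporter of glycolytic cells, stood at 490.1, 472 and 524 against 70.6, 59.6 and 68.7 CPM (log2 fold change 2.90 ± 0.12 SE, adjusted p = 1.25e-15). Pfkfb3, which makes the sugar phosphate that activates phosphofructokinase, stood at 155, 125 and 186 against 32.8, 30.3 and 32.6 CPM (log2 fold change 2.28 ± 0.11 SE, adjusted p = 5.34e-15). Groups were separate for each of these. Most Pfkfb3 counts were on predicted transcript models. Curated transcripts held 32.4% of them in the control co-culture and 27.1% in the p53-defective one. Pfkfb4, a related enzyme, was scarce at 6.49, 4.43 and 4.75 against 3.34, 3.67 and 3.89 CPM (log2 fold change 0.52 ± 0.16 SE, adjusted p = 0.00525), and its call was lost without the first p53-defective co-culture library (0.32). Pdk1, which blocks pyruvate dehydrogenase and so keeps pyruvate out of the mitochondrion, stood at 169.8, 172 and 165 against 162, 154 and 155 CPM and was not called (log2 fold change 0.11 ± 0.08, adjusted p = 0.221).

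The oxygen sensors were higher on p53-defective feeders. Egln1, the main prolyl hydroxylase of HIF alpha subunits, stood at 409, 407 and 424 CPM on p53-defective and 78.1, 68.2 and 75.3 CPM on control feeders (log2 fold change 2.48 ± 0.07 SE, adjusted p = 1.47e-18). Egln3, a hydroxylase of the same family that is strongly HIF-inducible, stood at 232, 210.0 and 233 against 68.9, 59.6 and 71.8 CPM (log2 fold change 1.75 ± 0.10 SE, adjusted p = 1.23e-13). Both had groups that did not overlap. Hif1a, the HIF alpha subunit itself, stood at 264, 240.4 and 272 against 167, 175 and 167 CPM (log2 fold change 0.61 ± 0.06 SE, adjusted p = 7.57e-09). That value rests on predicted transcript models. Curated transcripts held 15.1% of the Hif1a counts in the control co-culture and 0.665% in the p53-defective one, and with curated transcripts alone the log2 fold change was -3.88. For feeders the curated share was 13.7% in control and 0.183% in p53-defective libraries.

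Among the 12 other HIF targets, 9 were higher and 3 lower on p53-defective feeders. Ndrg1, a stress-response gene, stood at 1733, 1618 and 1789 CPM on p53-defective and 47.7, 41.97 and 47.3 CPM on control feeders (log2 fold change 5.23 ± 0.11 SE, adjusted p = 2.48e-20). Car12, a membrane carbonic anhydrase that helps control pH, stood at 267, 239 and 307 against 10.9, 11.1 and 13.2 CPM (log2 fold change 4.53 ± 0.13 SE, adjusted p = 1.48e-18). These were the largest differences of the 37 genes. P4ha1 and P4ha2, the catalytic subunits of collagen prolyl hydroxylase, were also apart, P4ha1 at 942, 808 and 1094 against 191, 163 and 183 CPM (log2 fold change 2.41 ± 0.11 SE, adjusted p = 6.3e-15). P4ha2 stood at 419, 387 and 474 against 76.3, 72.7 and 75.2 CPM (log2 fold change 2.51 ± 0.08 SE, adjusted p = 9.72e-18). Collagen-producing cells use both enzymes, and the fibroblast marker sums given above were higher in the p53-defective co-culture. Of these 12 markers 7 were higher and 3 lower (median log2 fold change 0.52), against 36.6% and 46.7% of all genes. Their part in these values was not tested. Bnip3, a receptor for removal of mitochondria, Mxi1, an antagonist of MYC, Ankrd37, a small ankyrin-repeat protein, Car9, a carbonic anhydrase widely used as a hypoxia marker, and Bnip3l, a relative of Bnip3, were higher by 2.19, 1.96, 1.80, 1.71 and 0.92 on the log2 scale. Kdm3a, a histone demethylase, was lower, at 53.4, 44.9 and 61.7 against 80.8, 83.4 and 88.7 CPM (log2 fold change -0.66 ± 0.09 SE, adjusted p = 7.62e-07). Ddit4, an inhibitor of mTORC1 signalling that p53 can also induce, was lower too, at 151, 158 and 148 against 230.5, 214 and 222 CPM (log2 fold change -0.54 ± 0.10 SE, adjusted p = 3.62e-05). Ndufa4l2, a mitochondrial protein made in hypoxia, was lower by a log2 fold change of -0.60 (adjusted p = 0.0187), a call that ended (-0.37 to -0.56) when any control co-culture library, or the first or the third p53-defective one, was left out.

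**Figure D2:**
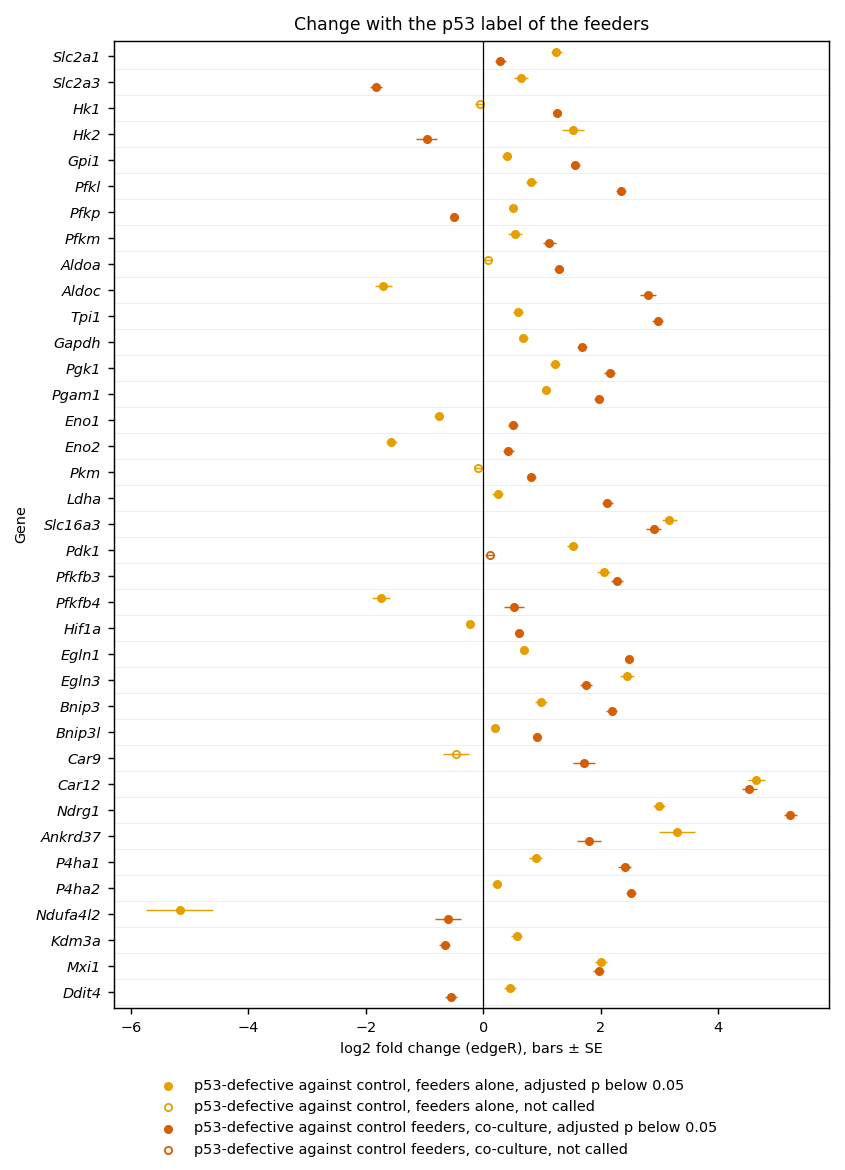
The log2 fold change (± SE, edgeR, TMM scale) of each gene by feeder label, between co-cultures and between feeders alone. Filled points have an adjusted p below 0.05. Between co-cultures 30 filled points lie right of 0, against 36.6% of all genes called higher. Filled points lie on opposite sides for 10 genes, which was not counted over all genes. If libraries are scaled on feeder-specific genes, the co-culture direction turns for 26 of the 37 genes. These include Pdk1, which is not a filled point, and Egln1 and P4ha2, whose turned values are not called.

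Feeders without ES cells were compared next. In p53-defective feeders 27 of the 37 were higher and 6 lower than in control feeders, and Hk1, Aldoa, Pkm and Car9 were not called, against 35.9% of all genes higher and 38.4% lower. The median log2 fold change was 0.60, and -0.01 over all genes. Car12 stood at 97.5, 117 and 93.9 CPM in p53-defective and 3.34, 4.39 and 4.58 CPM in control feeders (log2 fold change 4.65 ± 0.14 SE, adjusted p = 6.04e-18). Slc16a3 stood at 235, 239.8 and 191 against 19.6, 23.01 and 31.5 CPM (log2 fold change 3.17 ± 0.13 SE, adjusted p = 8.87e-16), and Ndrg1 at 444, 502 and 382 against 60.1, 59.3 and 47.3 CPM (log2 fold change 2.99 ± 0.10 SE, adjusted p = 3e-17). Egln3 stood at 34.6, 43.8 and 31.5 against 6.22, 6.47 and 7.41 CPM (log2 fold change 2.45 ± 0.12 SE, adjusted p = 3.13e-14). In each of these the p53-defective libraries were the higher and the groups were apart, as they were for the smaller differences of Pgk1 (1.22), Pgam1 (1.07), Gapdh (0.68) and Tpi1 (0.60). Aldoc was lower, at 5.65, 7.39 and 8.52 against 26.4, 24.05 and 19.8 CPM (log2 fold change -1.70 ± 0.15 SE, adjusted p = 4.06e-10), as were Eno2, at 39.03, 37.4 and 33.7 against 102, 117 and 106 CPM (log2 fold change -1.56 ± 0.09 SE, adjusted p = 1.77e-13), and Eno1, at 416, 448 and 369 against 726, 687 and 672 CPM (log2 fold change -0.76 ± 0.08 SE, adjusted p = 1.13e-08). Pfkfb4 was lower as well, at 3.68, 3.98 and 4.11 against 10.8, 14.05 and 14.6 CPM (log2 fold change -1.74 ± 0.15 SE, adjusted p = 4.81e-10). Hif1a was lower by a small margin, at 263, 255 and 257 against 315, 294 and 299 CPM (log2 fold change -0.23 ± 0.06 SE, adjusted p = 0.00226), and this call ended without the second p53-defective library (-0.15). Ndufa4l2 stood at 0.317, 0.0577 and 0.0613 CPM in p53-defective feeders, below the value of 3 counts in the second and the third library, and at 3.34, 3.93 and 8.80 CPM in control feeders (adjusted p = 6.54e-08). Marker lists moved with the feeder label as well. Mesothelial markers were higher for 6 of 8 and lower for 2, fibroblast markers lower for 12 of 12 (median log2 fold change -2.91), and macrophage markers lower for 7 of 8 and higher for 1 (median -7.98). Their part in these values was not tested.

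In all, 10 genes were called in opposite directions in the 2 comparisons. No such count was made over all genes, so whether 10 is many was not tested. Of all genes, 35.9% were higher and 38.4% lower between feeders, and 36.6% and 46.7% between co-cultures. Slc2a3, Hk2, Pfkp, Kdm3a and Ddit4 were higher in p53-defective than in control feeders, by 0.64, 1.53, 0.51, 0.57 and 0.45 on the log2 scale, but lower in the p53-defective co-culture. Hk2, for example, stood at 74.6, 75.7 and 41.6 CPM in p53-defective and 23.5, 25.6 and 17.5 CPM in control feeders. With curated transcripts alone the feeder calls of Slc2a3 and Pfkp were lost. Aldoc, Eno1, Eno2, Pfkfb4 and Hif1a were lower in p53-defective feeders and higher in the p53-defective co-culture. With curated transcripts alone Hif1a was lower in the co-culture too (-3.88), and its test of the difference between the label effects was not called (2.53, adjusted p = 0.195). In a test of the difference itself, the co-culture effect of the label minus its feeder effect was above 0 for 24 of the 37 genes and below 0 for 9, against 38.8% and 34.8% of all genes. All 7 genes of the later steps were above 0, Tpi1 the most at 2.37 ± 0.12 (adjusted p = 1.04e-13). By the same test fibroblast markers were above 0 for 12 of 12 (median 4.21) and macrophage markers for 8 of 8 (median 10.35), and their part in these values was not tested.

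The co-cultures were then set against the libraries of their parts. The p53-defective co-culture had 34 of the 37 genes higher and 2 lower than its own feeders (all genes, 46.7% and 33%), and 33 higher and 4 lower than ES cells after feeder removal (all genes, 38.6% and 47.2%). The control co-culture had 28 higher and 8 lower than control feeders (all genes, 44.3% and 39.9%). ES cells after feeder removal had 21 higher and 15 lower than control feeders (all genes, 45.1% and 40.8%). The p53-defective co-culture stood above both p53-defective feeders and ES cells after feeder removal in 31 of the 37 genes, and below both in 1 (Kdm3a). Of all genes tested, 25% were above both and 21.1% below both. In the control co-culture, a count added after the data were seen, 23 of the 37 were above control feeders and ES cells after feeder removal and 0 below both, against 8.02% and 7.54% of all genes. Each count needed 2 calls (edgeR, adjusted p below 0.05) that share the co-culture libraries. No ES cells from p53-defective co-cultures were analysed here, so the ES libraries used for the p53-defective co-culture came from cultures on control feeders. With library totals in place of TMM the counts were 27 and 24.

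Size differed widely between genes. Pfkl in the p53-defective co-culture was 9.25 times its mean in the higher of the parts, which stood at 95.01, 109 and 116 CPM in p53-defective feeders and 85.98, 86.7 and 94.5 CPM in ES cells after feeder removal. The 3 co-culture libraries, at 985, 1051 and 923 CPM, were above all 6 of these. Bnip3 was 7.87 times the higher part, with 575, 573 and 571 CPM in the co-culture, 64.2, 71.7 and 82.3 CPM in the feeders and 30.9, 29.3 and 35.8 CPM in the ES cells. Aldoc followed at 7.69, Egln3 at 6.14, Tpi1 at 6.07, Ldha at 5.89, Ndufa4l2 at 5.32 and Egln1 at 5.22 times the higher part. At the other end, the co-culture was 0.383 times the higher part for Slc2a3, 0.447 for Hk2, 0.630 for Eno2 and 0.762 for Pfkp, which were between their parts, and 0.305 for Kdm3a. In the control co-culture Egln3 led with 5.96 times the higher part, at 68.9, 59.6 and 71.8 CPM against 6.22, 6.47 and 7.41 CPM in control feeders and 11.5, 11.3 and 10.8 CPM in ES cells after feeder removal. Again all 3 co-culture libraries were above the other 6. Ndufa4l2, Bnip3, Ankrd37, Slc16a3 and Slc2a1 followed at 3.99, 3.43, 3.15, 2.68 and 2.51 times. Summed levels of fibroblast, mesothelial and macrophage markers were also above both parts in the p53-defective co-culture, but single markers varied. Against p53-defective feeders 12 of 12, 6 of 8 and 5 of 8 were higher and 0, 1 and 0 lower (all genes, 46.7% and 33%). Against ES cells after feeder removal 8, 8 and 3 were higher and 2, 0 and 0 lower (all genes, 38.6% and 47.2%). In this co-culture 5 of the 8 macrophage markers had means under 1 CPM. The part of these markers in the values was not tested.

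**Figure D3:**
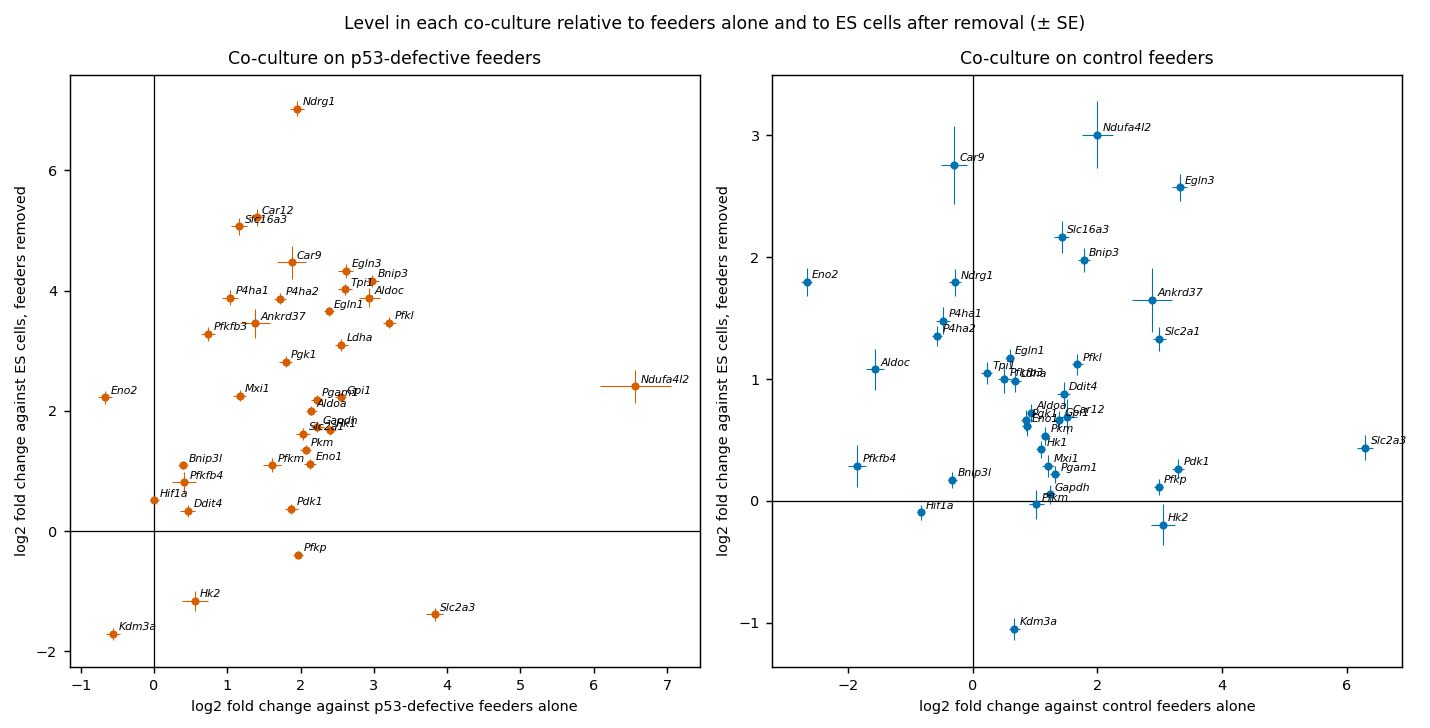
Log2 fold change (± SE, edgeR, TMM scale) of each gene in a co-culture against its feeders alone (x axis) and against ES cells after feeder removal (y axis), on p53-defective feeders (left) and control feeders (right). Genes in the upper right of a panel are above both parts, among them Pfkl at 3.21 and 3.47 on p53-defective feeders and Egln3 at 3.32 against control feeders.

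HIF binds the core motif ACGTG or GCGTG, and the promoters of the genes were searched for these letters on both strands (CACGT and CACGC on the strand shown), in the 250 bases before each annotated start in RefSeq (GRCm38.p6). Overlapping matches, such as those in CACGTG, which E-box factors bind too, counted as 1 place. Of the 33 genes that had a window, 29 (87.9%) held a core in at least 1 window, against 41.5% of all 27025 genes with a window and 58.5% of the 12136 that were also tested for expression. Genes with more windows can reach this more easily. By window, 38 of 50 (76%) held a core, against 38.6% of all 32851 windows and 52.8% of the 15445 windows of genes tested. By gene again, a stricter count was made. For 19 of the 33 genes (57.6%) a single window held cores in 2 or more places, against 15.2% and 25.4%. A match describes letters and is not a shown binding site. The list was made of glycolysis genes and named HIF targets, so higher shares were partly set by that choice and are not a test. Each core also holds the letters CG, and the windows compared were not matched for base content or expression level. The windows below belong to the genes with a single window that had the 4 highest and 2 lowest ratios of the p53-defective co-culture to its higher part, chosen after those ratios were seen. They are written 5′ to 3′ on the gene's strand, which is the minus strand in each case, with the cores in capitals.
Pfkl (gene ID 18641, chr10:77986947-78009807), window chr10:78009808-78010057: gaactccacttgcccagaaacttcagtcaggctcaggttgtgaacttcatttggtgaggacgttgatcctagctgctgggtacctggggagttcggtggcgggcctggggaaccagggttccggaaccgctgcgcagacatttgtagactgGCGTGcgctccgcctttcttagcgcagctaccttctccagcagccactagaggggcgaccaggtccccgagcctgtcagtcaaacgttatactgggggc
Bnip3 (gene ID 12176, chr7:138890836-138909506), window chr7:138909507-138909756: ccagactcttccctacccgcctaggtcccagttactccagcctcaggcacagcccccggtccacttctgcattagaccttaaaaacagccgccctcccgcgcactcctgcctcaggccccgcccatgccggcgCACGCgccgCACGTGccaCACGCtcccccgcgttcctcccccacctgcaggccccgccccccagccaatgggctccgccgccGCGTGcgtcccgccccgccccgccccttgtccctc
Egln3 (gene ID 112407, chr12:54178981-54203874), window chr12:54203875-54204124: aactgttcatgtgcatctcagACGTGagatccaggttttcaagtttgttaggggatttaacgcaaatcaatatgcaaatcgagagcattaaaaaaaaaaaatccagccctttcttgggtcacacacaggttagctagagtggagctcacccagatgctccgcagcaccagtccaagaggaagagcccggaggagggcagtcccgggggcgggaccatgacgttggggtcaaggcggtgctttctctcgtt
Tpi1 (gene ID 21991, chr6:124810586-124814158), window chr6:124814159-124814408: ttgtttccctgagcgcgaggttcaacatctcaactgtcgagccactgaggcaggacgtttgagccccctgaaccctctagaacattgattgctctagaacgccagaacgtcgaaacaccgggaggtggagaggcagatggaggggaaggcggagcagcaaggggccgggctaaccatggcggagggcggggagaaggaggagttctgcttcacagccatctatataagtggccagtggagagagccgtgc
Eno2 (gene ID 13807, chr6:124760053-124769673), window chr6:124769674-124769923: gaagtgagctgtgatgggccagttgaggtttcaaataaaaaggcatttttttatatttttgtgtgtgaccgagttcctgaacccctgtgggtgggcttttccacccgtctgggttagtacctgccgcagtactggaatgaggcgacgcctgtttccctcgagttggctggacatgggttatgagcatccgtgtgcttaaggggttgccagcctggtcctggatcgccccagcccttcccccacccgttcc
Hk2 (gene ID 15277, chr6:82725025-82774454), window chr6:82774455-82774704: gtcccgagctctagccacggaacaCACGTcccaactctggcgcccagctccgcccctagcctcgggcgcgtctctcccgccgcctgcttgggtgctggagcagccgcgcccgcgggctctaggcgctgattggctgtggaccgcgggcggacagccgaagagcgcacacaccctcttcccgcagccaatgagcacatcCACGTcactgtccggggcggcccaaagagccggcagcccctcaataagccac
Bnip3 had cores in 4 places, Hk2 in 2, and Pfkl and Egln3 in 1 each, whereas the windows of Tpi1 and Eno2 held 0. The number of places did not order these 6 genes as the ratios did, since Tpi1, with 6.07, held none and Hk2, with 0.447, held 2.

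Removal of the feeders was the next comparison. In ES cells after feeder removal 30 of the 37 genes were lower than in the control co-culture and 1 was higher (Kdm3a), against 26.5% of all genes lower and 25.5% higher. The median log2 fold change was -0.72 for these genes and -0.01 for all genes. Several HIF targets were among the genes that fell most. Egln3 stood at 11.5, 11.3 and 10.8 CPM against 68.9, 59.6 and 71.8 CPM in the co-culture (log2 fold change -2.57 ± 0.11 SE, adjusted p = 1.22e-12). Slc16a3 stood at 15.03, 13.1 and 16.1 against 70.6, 59.6 and 68.7 CPM (log2 fold change -2.17 ± 0.13 SE, adjusted p = 1.01e-10), and Bnip3 at 30.9, 29.3 and 35.8 against 136, 114 and 128 CPM (log2 fold change -1.98 ± 0.10 SE, adjusted p = 5.78e-12). No library of the co-culture came down to the range after removal for these 3. Ndufa4l2, Car9, Ndrg1, Eno2 and Ankrd37 fell by 3.01, 2.76, 1.79, 1.80 and 1.65 on the log2 scale. Of these, Car9 was scarce, at 0.439, 0.267 and 0.325 CPM after removal and 2.60, 2.29 and 2.19 CPM in the co-culture. Of the first-step genes, Slc2a1 stood at 267, 252 and 266 against 702, 604 and 665 CPM (log2 fold change -1.33 ± 0.10 SE, adjusted p = 7.34e-10) and Pfkl at 85.98, 86.7 and 94.5 against 205, 185 and 191 CPM (log2 fold change -1.12 ± 0.08 SE, adjusted p = 1.21e-09). Tpi1 stood at 164, 167 and 182 against 367, 336 and 359 CPM (log2 fold change -1.05 ± 0.09 SE, adjusted p = 5.6e-09), and Ldha at 357, 357 and 370.1 against 748, 661 and 735 CPM (log2 fold change -0.98 ± 0.09 SE, adjusted p = 1.07e-08). Each of these 4 had separate groups. Gapdh did not follow, at 4133, 3929 and 4210.1 against 4214, 4278 and 4233 CPM (log2 fold change -0.052 ± 0.08, adjusted p = 0.617). Hif1a was not called either (0.095 ± 0.06, adjusted p = 0.218), nor were Hk2, Pfkp, Pfkm and Pfkfb4. Kdm3a stood at 179.8, 183 and 162 against 80.8, 83.4 and 88.7 CPM (log2 fold change 1.05 ± 0.09 SE, adjusted p = 6.12e-09). The summed fibroblast markers were 4511 to 4936 CPM after removal and 6978 to 7327 CPM before, and their part in these values was not tested. A response of the ES cells and a change in the mixture of RNA cannot be told apart here.

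With ATN161 in place of feeders, 26 of the 37 genes were lower and 3 higher (Pfkp, Gapdh and Kdm3a) than in the control co-culture, against 28% of all genes lower and 33.6% higher. This comparison shares its control co-culture libraries with the feeder removal. The median log2 fold change was -0.67, beside 0.07 for all genes. Egln3 stood at 13.2, 13.4 and 11.3 CPM (log2 fold change -2.40 ± 0.11 SE, adjusted p = 3.77e-14), Slc16a3 at 14.2, 12.5 and 12.9 CPM (log2 fold change -2.33 ± 0.13 SE, adjusted p = 1.75e-12) and P4ha2 at 15.9, 16.5 and 15.7 CPM (log2 fold change -2.22 ± 0.09 SE, adjusted p = 3.24e-15), each below every control co-culture library. Pfkl fell by 0.88, Tpi1 by 0.87, Ldha by 0.97 and Slc2a1 by 1.16 on the log2 scale. Gapdh stood at 5169.6, 4788 and 5236 CPM (log2 fold change 0.26 ± 0.08 SE, adjusted p = 0.00944), a call that ended (0.17 to 0.19) when any one control co-culture library was left out. Pfkp rose by 0.32 (adjusted p = 0.000119) and Kdm3a by 0.34 (adjusted p = 0.00253), the latter not called without the first control co-culture library (0.23). Presence of the inhibitor and absence of feeders cannot be told apart in this comparison. Set directly against feeder removal, ATN161 cultures had 12 of the 37 genes higher, 6 lower and 19 not called, against 28.6% and 26.8% of all genes. Ddit4 was higher with ATN161, at 229.6, 226 and 209 against 124, 106 and 132 CPM (log2 fold change 0.87 ± 0.10 SE, adjusted p = 2.79e-07), and P4ha2 was lower, at 15.9, 16.5 and 15.7 against 28.1, 31.4 and 27.99 CPM (log2 fold change -0.86 ± 0.09 SE, adjusted p = 4.65e-08). Both pairs of groups were apart. Kdm3a fell by 0.71 and Pfkfb3 by 0.59, the latter not called with curated transcripts alone (-1.38). Of the 12 genes that rose, 9 belonged to glucose uptake or glycolysis, with Gapdh at 0.31 and Gpi1 at 0.32. ATN161 cultures held the lowest fibroblast marker sums of all groups, 1076 to 1190.2 CPM, which was not tested as part of these values.

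**Figure D4:**
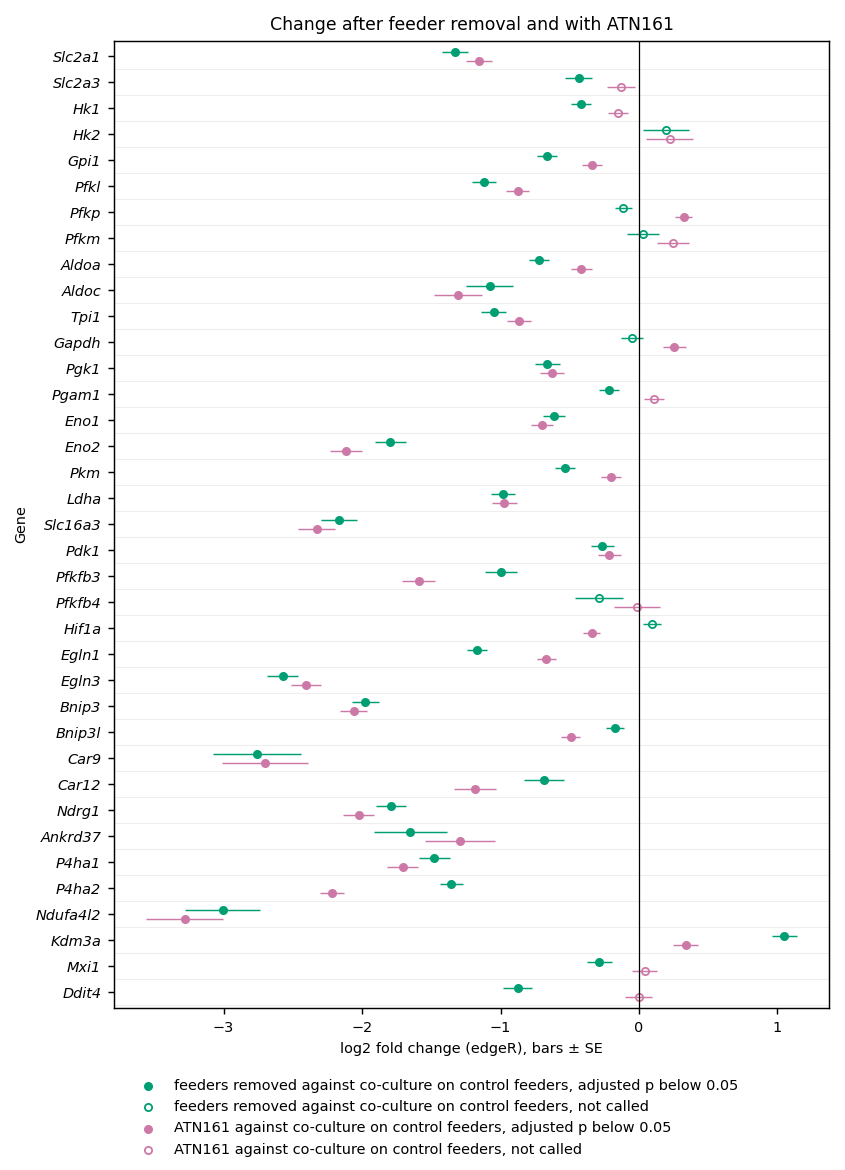
Log2 fold change (± SE, edgeR) of each gene after feeder removal and with ATN161, both against the same 3 control co-culture libraries. Filled points have an adjusted p below 0.05, and 30 genes lie left of 0 as filled points for feeder removal and 26 for ATN161.

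Pkm (gene ID 18746, chr9:59656576-59679372) makes 2 enzyme forms by including 1 of 2 neighbouring exons. The M2 form is typical of embryonic and proliferating cells, and the M1 form of muscle and brain. Both exclusive exons are 167 bases long, the M1 exon at chr9:59675029-59675195 and the M2 exon at chr9:59675568-59675734 on the plus strand (GRCm38, sequence from GENCODE M21 transcripts), and each is exon 9 of its transcript. They differ at 64 positions, in capitals below, and are 61.68% identical, which is how reads can tell the forms apart.
M1 exon: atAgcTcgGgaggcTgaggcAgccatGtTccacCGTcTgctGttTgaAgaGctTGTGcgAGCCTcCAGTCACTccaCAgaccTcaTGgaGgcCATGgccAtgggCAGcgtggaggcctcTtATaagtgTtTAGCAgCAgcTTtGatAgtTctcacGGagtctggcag
M2 exon: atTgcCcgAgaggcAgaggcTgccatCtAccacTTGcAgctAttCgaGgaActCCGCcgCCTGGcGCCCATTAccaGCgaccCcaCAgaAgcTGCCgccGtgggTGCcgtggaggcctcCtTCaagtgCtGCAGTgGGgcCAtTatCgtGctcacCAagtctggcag
By the authors' estimated counts, the M1 transcript held 10.04%, 9.80% and 10.6% of Pkm in control feeders and 1.83%, 1.95% and 1.34% in p53-defective feeders. It held 15.1%, 15.1% and 15.1% in the control co-culture and 5.23%, 6.21% and 6.06% in the p53-defective co-culture. The share was lower under the p53-defective label in both settings, and the groups did not overlap. In ES cells after feeder removal it was 11.01%, 10.7% and 11.4%, and with ATN161 8.67%, 9.08% and 8.77%. The M2 transcript held most of Pkm in every library, from 83.5% to 97.0%. These shares are estimates of a transcript assembler for transcripts that share most of their sequence, and were not tested.

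**Figure D5:**
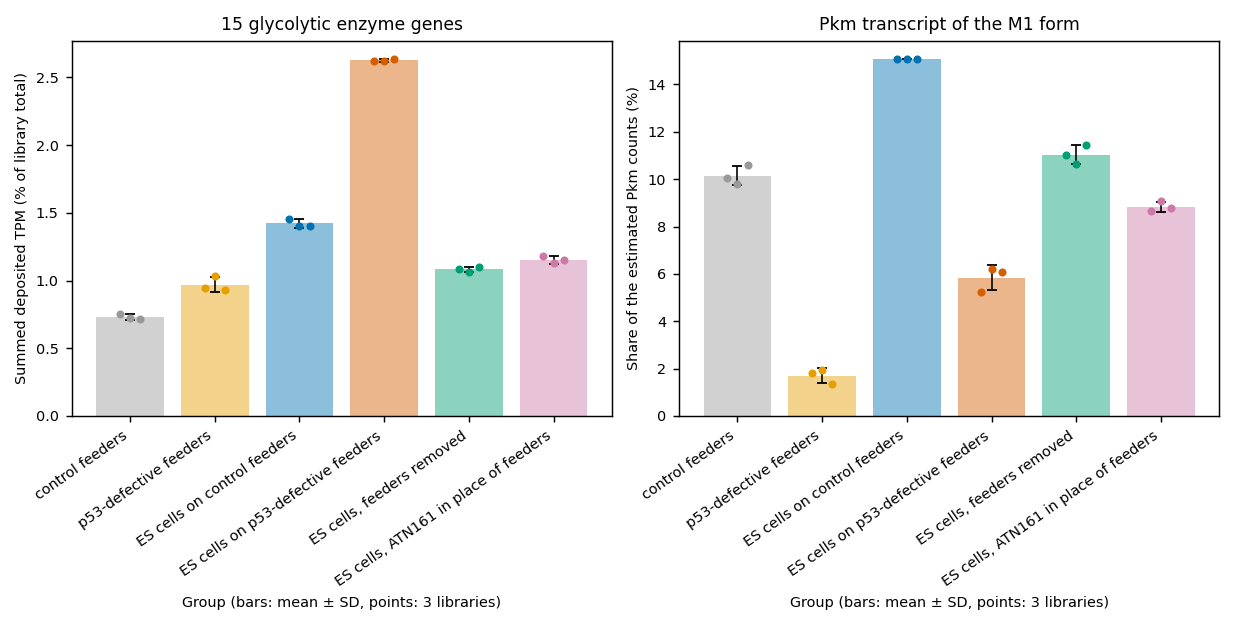
Left, the summed TPM of 15 glycolytic enzyme genes as a percentage of all TPM, and right, the percentage of Pkm counts on the M1 transcript, by group (bars, mean ± SD of 3 libraries, points, libraries). The enzyme share is highest in the p53-defective co-culture, 2.63% ± 0.011, and the M1 share lowest in p53-defective feeders.

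Lists of neighbouring genes were counted in the same fits. Of 28 further HIF targets tested, 21 were higher and 4 lower in the p53-defective than in the control co-culture on the TMM scale, whose dependence on the scaling set is given above, against 36.6% and 46.7% of all genes. They included Pgf, a growth factor for blood vessels (2.94), Hilpda, which promotes lipid storage (2.95), Anxa1, an annexin (2.57), and Fam162a (2.09), as log2 fold changes with adjusted p of 1.57e-16, 3.31e-16, 1.7e-17 and 7.19e-16. Vegfa, the main vascular growth factor, was higher by 2.18. Between feeders the same list had 15 higher and 9 lower, against 35.9% and 38.4% of all genes, with Edn1, an endothelin, at 4.08 and Vegfa at 1.46. After feeder removal 21 were lower and 2 higher, against 26.5% and 25.5% of all genes, with Pgf at -3.40, the vasodilator peptide gene Adm at -2.53 and Vegfa at -1.54. With ATN161 the counts were 20 lower and 4 higher, against 28% and 33.6% of all genes. Of 12 components of the HIF pathway, 6 were higher and 4 lower between co-cultures, against the same 36.6% and 46.7% of all genes, with the alpha subunit Epas1 at -2.50 and the ubiquitin ligase subunits Rbx1, Elob and Eloc at 1.43, 1.37 and 1.21.

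For the co-culture counts that follow, all on the TMM scale, 36.6% of all genes were higher and 46.7% lower. Of 8 counter-regulators and gluconeogenic genes, 6 were lower and 2 higher in the p53-defective co-culture. Tigar, a p53-inducible phosphatase that lowers the activator of phosphofructokinase, was at -1.62 (adjusted p = 1.2e-12), and Pcx, pyruvate carboxylase, at -1.38 (adjusted p = 3.4e-11). Between feeders Tigar was at 0.73, the other direction. Of 14 genes of pyruvate and lactate handling, 8 were higher and 4 lower between co-cultures, Bsg, the chaperone of lactate transporters, at 3.44 and the mitochondrial pyruvate carrier genes Mpc1 and Mpc2 at 1.79 and 1.24. Other isozymes of glycolysis had 5 higher and 4 lower of 14 tested, a share higher that was near that of all genes. The pentose phosphate pathway had 4 higher and 0 lower of 7, with G6pdx, its entry enzyme, at 1.20 (adjusted p = 5.84e-14). For glycogen metabolism the counts were 6 higher and 1 lower of 9, with glycogen synthase Gys1 at 2.20 and the muscle phosphorylase Pygm at -2.34. After feeder removal 9 of 9 glycogen genes were lower, against 26.5% of all genes, among them Gbe1, the branching enzyme, at -1.40 and Pygl, the liver phosphorylase, at -2.13. With ATN161 5 were lower and 0 higher, against 28% and 33.6% of all genes.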

How the data were processed

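RNA was sequenced from 18 libraries, 3 in each of 6 groups. The authors deposited estimated counts and TPM per transcript. HISAT2, StringTie, SAMtools and DESeq2 and the build GRCm38 are named per the submitters' processing notes, without roles, and strandedness is not given in the sources used here. Of the deposited columns, 60 were not used. Here estimated counts were summed per gene ID, curated and predicted transcripts together, and rounded to whole numbers. A single edgeR 4.0.16 quasi-likelihood fit in R 4.3.3 over all 18 libraries (filterByExpr, TMM, group means, common biological coefficient of variation 0.0792) tested 15389 genes two-sided, with Benjamini-Hochberg adjustment over all of them and a threshold of 0.05. TPM, as deposited by the authors, was used to compare levels between genes. Library totals ranged from 15122721 to 19833404 counts. Replicate libraries correlated at 0.989 to 0.995 (log2 CPM, across genes) and none agreed within sampling noise. Tested on simulated data, 2-fold changes were recovered for 98% of genes and 1.5-fold changes for 74% (feeders) and 80% (co-cultures) of 50 genes each. The 37 genes and all lists were chosen with earlier results of these data known. Given in full are, by rule, up to 4 genes per role with the largest co-culture difference among those called without overlap between groups. Separate co-culture groups were thus a condition for these genes, not a result. Also given in full are genes called in opposite directions by feeder label, and Hif1a, Gapdh and Pkm. Further genes of the 37 were shown after their values were seen. Alternatives were other scalings, filters, DESeq2 1.42.0, curated transcripts, a replicate block, fits of only the groups compared, and leaving out each library.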

Additional observations from a re-analysis of the deposited data

Results flagged for a closer look

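The effect of the feeder label in co-cultures and its effect in feeders alone differed for 33 of the 37 genes, by a test of the difference itself (edgeR interaction contrast, adjusted p below 0.05), against 38.8% of all genes above 0 and 34.8% below. Values are the log2 fold change between co-cultures minus that between feeders, and the 12 libraries of 4 groups enter each. Among the first steps of glycolysis the difference was above 0 for Hk1 1.31, Gpi1 1.17, Pfkl 1.53, Pfkm 0.59, Aldoa 1.20 and Aldoc 4.51. In the later steps it was above 0 for all 7 genes, Tpi1 2.37, Gapdh 0.99, Pgk1 0.93, Pgam1 0.90, Eno1 1.26, Eno2 1.99 and Pkm 0.90. Of the other genes it was above 0 for Ldha 1.87, Pfkfb4 2.26, Hif1a 0.83, Egln1 1.79, Bnip3 1.20, Bnip3l 0.72, Car9 2.18, Ndrg1 2.24, P4ha1 1.51, P4ha2 2.29 and Ndufa4l2 4.57. It was below 0 for Slc2a1 -0.96, Slc2a3 -2.46, Hk2 -2.49, Pfkp -1.02, Pdk1 -1.42, Egln3 -0.70, Ankrd37 -1.49, Kdm3a -1.23 and Ddit4 -0.997. Slc16a3, Pfkfb3, Car12 and Mxi1 were not called. Aldoc and Ndufa4l2 had the most positive values, and Ndufa4l2 was near 0 counts in p53-defective feeders. Scaling by library totals left 23 genes above 0 and 12 below. With curated transcripts alone the Hif1a difference was not called (2.53, adjusted p = 0.195). By the same test, fibroblast markers were above 0 for 12 of 12 (median 4.21), macrophage markers for 8 of 8 (median 10.35) and mesothelial markers for 6 of 8 (median 4.08), while ES cell markers were below 0 for 4 of 12. Their part in the differences was not tested.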

How the results depend on the processing

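The scaling of the co-cultures changed most. With libraries scaled on feeder-specific genes, 3 of the 37 genes were higher and 30 lower in the p53-defective than in the control co-culture, and log2 fold changes turned for Egln1 -0.18, Egln3 -0.92, Aldoa -1.37, Bnip3 -0.48, Bnip3l -1.74, Eno1 -2.15, Eno2 -2.23, Gapdh -0.98, Gpi1 -1.09, Hif1a -2.06, Hk1 -1.41, Ldha -0.54, Pfkfb3 -0.40, Mxi1 -0.70, P4ha1 -0.27, P4ha2 -0.16, Pfkl -0.31, Pfkm -1.53, Pgam1 -0.69, Pgk1 -0.50, Pkm -1.84, Slc2a1 -2.39, Pdk1 -2.55, Car9 -0.95, Pfkfb4 -2.14 and Ankrd37 -0.86. Scaled on ES-specific genes, 0 were lower, and Kdm3a 2.37, Hk2 2.07, Slc2a3 1.21, Ndufa4l2 2.42, Pfkp 2.52 and Ddit4 2.49 turned. Library totals in place of TMM turned Slc2a1 (-0.050) and Pdk1 (-0.23) between co-cultures and Hif1a (-0.27) between the p53-defective co-culture and its feeders, and left 1 gene higher with ATN161 than in the control co-culture. They also moved the median of all genes between co-cultures from -0.18 to -0.52 and the split of all genes called from 5638 higher and 7191 lower to 4184 higher and 8817 lower. The split moved from 3924 higher and 4077 lower to 3067 higher and 4885 lower for feeder removal, from 5176 higher and 4307 lower to 3799 higher and 5160 lower for ATN161, from 7187 higher and 5078 lower to 5863 higher and 6347 lower for the p53-defective co-culture against its feeders, and from 5975 higher and 5352 lower to 4554 higher and 6816 lower for the difference of label effects. With curated transcripts only, Hif1a turned between co-cultures (-3.88), with ATN161 against the control co-culture (0.32) and in the p53-defective co-culture against ES cells after feeder removal (-4.45), and Hk1 turned between ATN161 and feeder removal (-0.064). That setting also ended a call in 20 cases and, over all genes, cut higher calls from 3924 to 2279 for feeder removal, from 5176 to 3016 for ATN161 against the co-culture and from 4406 to 2705 for ATN161 against removal. Fits of only the groups compared gave 2 genes higher after feeder removal, 5 higher with ATN161 than in the control co-culture and 10 lower with ATN161 than after removal. Leaving out 1 library gave 1 to 3 genes higher with ATN161, and ended a call in 33 cases among the 37 genes over all comparisons and libraries. One of these was P4ha2 between feeders without the first control library (0.18). The cause of these changes was not tested. In no pair of groups was every correlation of same-numbered libraries over 0.1, the rule set for pairing. With 3 libraries per group this cannot exclude pairing. The feeder groups had correlations of 0.109, 0.054 and 0.223, and feeder removal and ATN161 had 0.064, 0.057 and 0.107. With the replicate block, 30 genes were higher and 6 lower between co-cultures and 27 higher and 6 lower between feeders, and no count moved by more than 1.

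Estimated counts limit Ndufa4l2, Car9, Pfkfb4 and Ankrd37, which were scarce in several groups. Co-cultures mix cell types, so no co-culture value belongs to ES cells or feeders alone, and ES cells from p53-defective co-cultures were not analysed here.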
